A study of Mus musculus and Rattus norvegicus with 26 samples.

Results

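The NMDA receptor subunit genes were followed through 6 lists of cytoplasmic intron-sequence retaining transcripts (CIRTs), the study's name for transcripts in the cytoplasm that still carry stretches of intron. A list names contigs, runs of intron covered by neighbouring reads, with the transcript, the intron number, the position and the number of reads in the intron. The genes were chosen by name as Grin1, Grin2a, Grin2b, Grin2c, Grin2d and Grin3a, and their contigs are the lines of the lists that carry 1 of these symbols. Of these 6 genes, 5 were listed at least once, out of 13686 genes in all lists together, and they held 66 contigs. Grin2c was in none of the lists.

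The NMDA receptor is a glutamate-gated cation channel of excitatory synapses. It opens only when agonists are bound and the membrane is depolarised enough to expel magnesium from the pore, and the calcium that then enters starts synaptic plasticity in hippocampal dendrites. Every receptor contains GluN1, the obligatory glycine-binding subunit encoded by Grin1. It assembles with GluN2 subunits (Grin2a to Grin2d), which bind glutamate and set the kinetics of the channel, or with GluN3 subunits such as that of Grin3a, which bind glycine and lower calcium entry and magnesium block. GluN2B and GluN2D dominate in the embryonic brain, and GluN2A rises after birth. GluN2C is best known from the cerebellum.

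The mouse neurons were hippocampal cells of C57BL/6 embryos at day 18, with 3 dendrite and 3 soma libraries, and the rat neurons were hippocampal cells of Sprague-Dawley embryos at day 18, with 2 dendrite and 3 soma libraries. Dendrites were cut away by hand and pooled, so a dendrite library is a mixture of many cells, while the soma libraries were of single cells. Both were taken from neurons kept in culture after the embryos were dissected, so the cells were older than the embryos. Interscapular brown adipose tissue (BAT) cells came from CD-1 embryos at day 17.5 (6 libraries by the labels), and cardiomyocytes from transgenic C57BL/6 embryos at day 14.5 that carry the Fucci cell cycle probe mAG-hGem under the cytomegalovirus promoter (9 libraries by the labels). All RNA went through 3 rounds of aRNA amplification, which starts from a poly(T) primer. The libraries of a condition were pooled into 1 list by the authors, so no value has an error between libraries and no difference between conditions could be tested. Intervals are 95% intervals that cover counting error only, since amplified reads are not independent molecules. The somas, BAT cells and cardiomyocytes were taken with their nuclei, so that in these lists nuclear transcripts not yet spliced cannot be told apart from cytoplasmic ones. In the dendrite pools, fewer cells that hold an RNA and less RNA per cell cannot be told apart.

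Where contigs of a subunit gene from different mouse lists covered the same bases, the shared sequence is shown. A position found again in another list is the nearest thing to a repeat measurement that the pooled lists hold. All sequences are of the mouse build NCBIM37 (mm9), written 5′ to 3′ on the gene's own strand, which is the minus strand, with the shared bases in capitals. The contig of intron 8 of Grin1 in dendrites (chr2:25155990-25156199) lay wholly within the soma contig, that of intron 8 of Grin2a (chr16:9645855-9646076) did so too, that of intron 5 of Grin3a (chr4:49715945-49716030) shared 56 nt with the soma contig, and that of intron 6 of Grin2d (chr7:53111374-53111512) shared 138 nt with the BAT contig.
Grin1 intron 8, dendrites and somas: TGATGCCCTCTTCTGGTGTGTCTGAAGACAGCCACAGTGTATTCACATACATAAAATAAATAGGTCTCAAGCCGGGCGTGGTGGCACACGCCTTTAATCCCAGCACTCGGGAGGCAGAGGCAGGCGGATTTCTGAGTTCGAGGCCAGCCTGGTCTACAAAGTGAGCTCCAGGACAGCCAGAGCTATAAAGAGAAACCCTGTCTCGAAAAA
Grin2a intron 8, dendrites and somas: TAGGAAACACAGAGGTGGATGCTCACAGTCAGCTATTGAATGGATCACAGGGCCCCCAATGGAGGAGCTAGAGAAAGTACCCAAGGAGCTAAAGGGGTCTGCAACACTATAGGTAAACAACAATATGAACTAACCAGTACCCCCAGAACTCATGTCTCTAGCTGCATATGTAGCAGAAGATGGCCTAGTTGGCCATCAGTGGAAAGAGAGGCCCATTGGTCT
Grin3a intron 5, dendrites and somas: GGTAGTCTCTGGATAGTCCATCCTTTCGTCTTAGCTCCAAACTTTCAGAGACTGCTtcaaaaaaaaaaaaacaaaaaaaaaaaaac
Grin2d intron 6, dendrites and BAT cells: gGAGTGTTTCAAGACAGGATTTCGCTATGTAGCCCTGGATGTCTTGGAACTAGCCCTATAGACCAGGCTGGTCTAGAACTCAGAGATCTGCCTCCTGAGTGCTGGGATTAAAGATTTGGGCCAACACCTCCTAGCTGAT

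Cardiomyocytes and somas shared bases at 2 places in intron 8 of Grin1. The first is a run of 108 nt made largely of AAAG units (chr2:25156530-25156637), and the second is a contig of 232 nt (chr2:25158132-25158363) that shared 174 nt with the soma contig and ends in the same kind of repeat.
Grin1 intron 8, cardiomyocytes and somas, shorter contig: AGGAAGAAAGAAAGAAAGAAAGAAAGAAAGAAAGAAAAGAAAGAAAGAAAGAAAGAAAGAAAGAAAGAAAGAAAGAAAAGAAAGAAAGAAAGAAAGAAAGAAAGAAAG
Grin1 intron 8, cardiomyocytes and somas, longer contig: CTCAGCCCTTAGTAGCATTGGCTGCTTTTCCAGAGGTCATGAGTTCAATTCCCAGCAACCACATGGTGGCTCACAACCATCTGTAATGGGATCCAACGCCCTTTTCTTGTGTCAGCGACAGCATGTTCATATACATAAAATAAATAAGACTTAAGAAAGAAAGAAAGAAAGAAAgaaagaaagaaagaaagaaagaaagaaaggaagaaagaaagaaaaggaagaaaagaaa

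Several of the contigs that hold these stretches were of repeated sequence. Each contig was cut into all of its 24-mers, and a 24-mer was called repeated when it lay at more than 10 places in the mouse genome, counting both strands. In the dendrite contig of Grin1 intron 8, 80.7% of the 24-mers were repeated, with a median of 1680 places. In that of Grin2a intron 8 the share was 86.9%, with a median of 1631 places. The shorter cardiomyocyte contig of Grin1 reached 100% and the longer 52.6%. The share was 47.6% in the dendrite contig of Grin3a intron 5 and 19.0% in that of Grin2d intron 6, in both cases over the whole contig. Of the 11 mouse contigs of the subunit genes that overlapped a contig of another list, 6 had over 50% repeated 24-mers, against 5 of the 44 that did not overlap. Among every 20th contig of the same 4 lists, which gave 4883 contigs of other genes, 10.7% were that repeated, and the share was 11.0% of the overlapping and 10.5% of the other contigs. The authors kept reads that mapped to 1 place only, and how repeated sequence bears on the counts was not tested.

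The genes filled the lists very unevenly. In mouse dendrites 5 genes were listed with 10 introns, 18 contigs and 884 reads (interval 827 to 944), which was 286 RPM, meaning reads in every 1000000 intronic reads of the list. Mouse somas listed the same 5 genes with 11 introns, 19 contigs and 2422 reads (interval 2326 to 2520), or 1305 RPM. Grin3a carried 89.7% of these reads in dendrites and 66.0% in somas. BAT cells listed 4 of the genes with 876 reads, or 49.1 RPM, and cardiomyocytes 2 with 210 reads, or 17.2 RPM. Rat dendrites and rat somas listed 2 genes each, with 709 reads (704 RPM) and 581 reads (277 RPM). Of all annotated mouse coding genes with an intron, 43.9% were listed in dendrites, 30.1% in somas, 52% in BAT cells and 31.6% in cardiomyocytes, beside 5, 5, 4 and 2 of the 6 subunit genes.

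**Figure D1:**
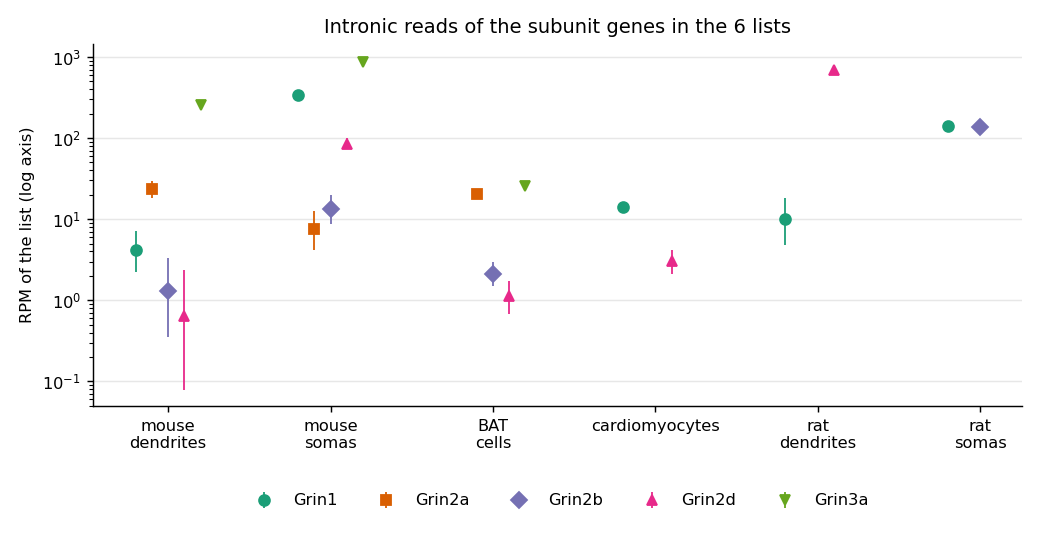
Intronic reads of each listed subunit gene in RPM of the list (log axis), for the 6 lists; points are the pooled values and bars the 95% Poisson intervals. Grin3a is the highest gene in mouse dendrites and somas, while in rat dendrites Grin2d stands at 694 RPM and Grin3a is not listed.

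Grin1, the obligatory subunit, was listed in 5 of the 6 lists, and in each of these 5 by intron 8. The gene lies on chromosome 2 (chr2:25146701-25174640, minus strand), and intron 8 is the longest of its 19 introns at 5190 nt, inserted after codon 399 of 937. It carried 11 reads in mouse dendrites (interval 5.49 to 19.7), 606 in mouse somas (559 to 656) and 173 in cardiomyocytes (148 to 201). BAT cells did not list Grin1. The intron numbered 8 of the rat transcript had 2 reads in dendrites and 287 in somas (255 to 322). In the full lists of both species the somas thus held the larger number by far, and no Grin1 intron in the dendrite lists had more than 11 reads. The study limited contigs of whole cells to 400 nt. With that limit intron 8 leaves the mouse soma list, since its contigs there (1842 and 907 nt) are all longer. Mouse somas then list Grin1 by other introns only, with 15 and 5 reads. Rat somas keep intron 8 through a contig of 313 nt.

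In mouse somas 2 contigs of 1842 and 907 nt covered 53.0% of intron 8, the largest covered share of any subunit intron in any mouse list. The single dendrite contig of 210 nt covered 4.05% of it and the 2 cardiomyocyte contigs 6.55%. The dendrite and cardiomyocyte contigs did not touch each other and were 330 nt apart at the nearest. The shorter soma contig shared 96 nt with an exon of a noncoding Grin1 transcript in the annotation. The antisense gene E130003G02Rik ends within intron 8, but no contig overlapped its exons. Since the libraries did not keep the strand, reads of either strand in this region cannot be told apart.

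**Figure D2:**
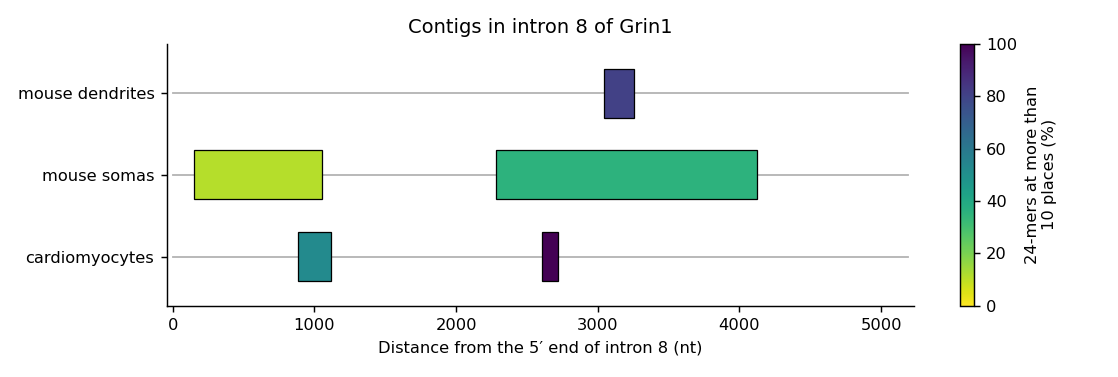
Contigs in intron 8 of mouse Grin1, drawn to scale as distance from the 5′ end of the intron (nt), with 1 row for each list that holds it; colour gives the percent of 24-mers at more than 10 places in the genome. The soma contigs cover 53.0% of the intron, and the dendrite contig of 210 nt lies inside the longer of them.

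The other Grin1 introns had few reads. Mouse somas held 15 reads in a contig of 377 nt (chr2:25166328-25166704) and 5 reads in intron 19, and mouse dendrites held 2 reads in intron 4 of the shorter transcript. The contig with 15 reads was listed as intron 4 of the longer Grin1 transcript, NM_001177656, and is not the intron 4 of dendrites. It starts 158 nt after an exon of 63 nt, or 21 codons (chr2:25166863-25166925), which the shorter transcript NM_008169 skips as part of its intron 3 and which is known as the N1 cassette. All 377 nt also belong to an exon of a noncoding Grin1 transcript. In rat, dendrites held 2 reads in intron 4 and 6 in intron 10, and somas held 5 in intron 10 and 3 in intron 13. The rat intron 10 contigs of dendrites and somas shared 166 nt, the whole of the dendrite contig.

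Of the glutamate-binding subunits, Grin2a was listed by a single intron throughout. Its gene spans 410 kb of intron on chromosome 16, yet only intron 8 of 9136 nt, the sixth longest of 11, was listed. That intron had 72 reads in mouse dendrites (interval 56.3 to 90.7), 14 in mouse somas (7.65 to 23.5) and 364 in BAT cells (328 to 403). Against the totals of the lists this was 23.3, 7.55 and 20.4 RPM, so Grin2a was the subunit gene that stood higher in dendrites than in somas of the mouse. The soma contig of 542 nt had 78.8% repeated 24-mers. With contigs of at most 400 nt, or without mostly repeated contigs, Grin2a leaves the soma list. Under either setting there is no soma value to set beside that of dendrites. Dendrites had 2 contigs there, and the one without repeated 24-mers (chr16:9648551-9648796) lay 773 nt from the BAT contig of 883 nt.

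Grin2b was listed in 4 lists, and no intron of it was shared by dendrites and somas. Intron 13 had 4 reads in mouse dendrites and 38 in BAT cells (interval 26.9 to 52.2), in contigs that lay 544 nt apart. Mouse somas had 25 reads (16.2 to 36.9) in intron 2, which lies before the first codon. In rat somas intron 3 had 154 reads and intron 9 had 132, while rat dendrites did not list the gene. The soma contig of intron 2 (chr6:136121901-136122088) is shown because it is the only mouse contig of the subunit genes that reaches the end of its intron, and the capitals mark the last 2 bases of the intron, the AG of the acceptor.
Grin2b intron 2, somas: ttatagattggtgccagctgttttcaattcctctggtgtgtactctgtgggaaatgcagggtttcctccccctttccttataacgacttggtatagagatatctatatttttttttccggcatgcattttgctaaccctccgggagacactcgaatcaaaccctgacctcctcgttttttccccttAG

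Grin2d was listed in 5 lists, and in the neurons its place in the dendrite and soma lists was opposite in the 2 species. Mouse somas held 158 reads (interval 134 to 185) in a contig of 583 nt in intron 9, the longest intron of the gene at 18376 nt, and cardiomyocytes held 37 reads in the same intron, 2243 nt away. Mouse dendrites held 2 reads in intron 6, and BAT cells 20 reads (12.2 to 30.9) in an overlapping contig. In rat, intron 10 had 699 reads (648 to 753) in 1 dendrite contig of 1025 nt (chr1:96312720-96313744 of rn4), which was 98.6% of the reads of all subunit genes in that list. Rat somas did not list Grin2d. The mouse soma and the rat dendrite contig are both longer than 400 nt, so with contigs of at most 400 nt Grin2d leaves these lists. The study set that limit for whole cells and not for dendrites, and with it set so, the rat dendrite contig stays and Grin2d is listed in the dendrites of both species and the somas of neither. Rat intron lengths were not analysed here.

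Grin3a, the modulatory glycine-binding subunit, was the most densely listed member. Its gene on chromosome 4 has 8 introns, and 5 of them were listed in each of mouse dendrites, mouse somas and BAT cells, 6 in all. Intron 3, of 51026 nt, had the most reads in each of the 3 lists, with 455 in dendrites (interval 414 to 499), 1410 in somas (1337 to 1486) and 390 in BAT cells (352 to 431). It ranked 232 among all introns of the soma list. Intron 2 had 184, 115 and 6 reads in the same order, and intron 1 had 78, 4 and 2. In RPM of the list, intron 1 stood at 25.3 in dendrites and 2.16 in somas, intron 2 at 59.6 and 62.0, intron 3 at 147 and 760, and intron 5 at 23.97 and 29.1. The introns of 1 gene therefore did not move together, and the lower level of Grin3a in dendrites came from intron 3. Introns 6 and 7 were in no list, although intron 6 is 30081 nt long. Cardiomyocytes and both rat lists did not hold Grin3a at all.

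The contigs of Grin3a mostly lay at different positions in the introns that lists shared. Summed over pairs of mouse lists, 1 of its 12 shared introns had overlapping contigs. For the subunit introns of at least 10000 nt, most of them in Grin3a, it was 1 of 11, beside 35.3% of all shared introns that long, and the difference was not tested. Intron 3 held 2 contigs in dendrites, 7 in somas and 8 in BAT cells, and no contig of one list overlapped a contig of another, the nearest pair being a soma and a BAT contig 66 nt apart. Intron 1 held 5 dendrite contigs, 1 soma contig and 1 BAT contig, also without overlap. The only overlap in the gene was the 56 nt of intron 5 shown above. A soma contig of 282 nt in intron 3 contains an exon of the processed pseudogene Gm12459 on the same strand, and a dendrite contig of 289 nt in intron 5 lies within an exon of a noncoding Grin3a transcript, so these reads need not come from a retained intron.

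**Figure D3:**
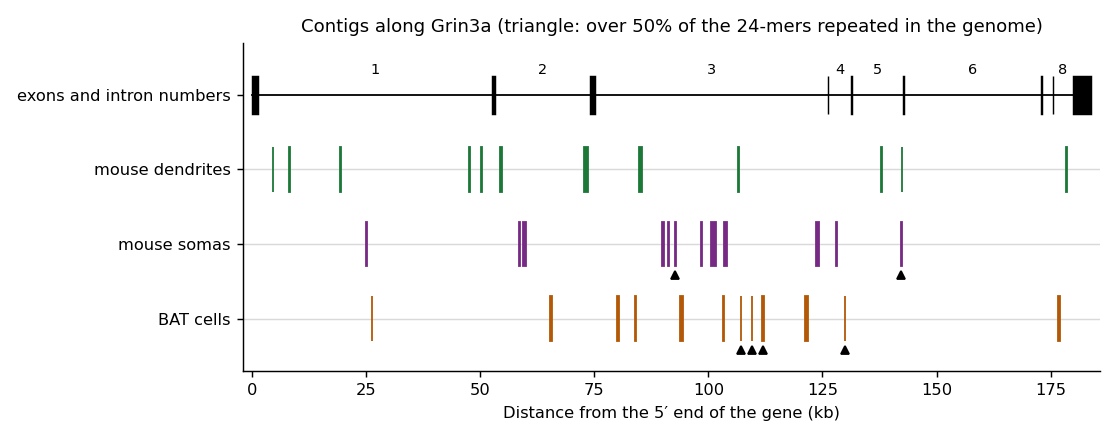
Contigs along Grin3a, drawn to scale as distance from the 5′ end of the gene (kb), with exons and the numbers of the longer introns on the top row; triangles mark contigs with over 50% of 24-mers at more than 10 places in the genome. Introns 1, 2 and 3 hold contigs of all 3 lists, and introns 4, 5 and 8 of 2 lists each. Except for 1 pair in intron 5, the contigs of different lists lie at different places.

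Over all subunit genes, dendrites and somas of the mouse shared 6 introns, and in 3 of them the contigs overlapped. In the whole lists 58% of the shared introns had overlapping contigs, so this was near the background. Summed over the 6 pairs of mouse lists, 5 of the 21 shared introns had overlapping contigs, beside 53.5% of all shared introns. In rat it was 1 of 2, beside 66.5%. These numbers are small, the lists are the same in several pairs, and the differences from the background were not tested. Of the 15 distinct mouse introns, 11 were in at least 2 lists, beside 39.5% of all introns. All 5 introns of at least 10000 nt were, beside 75.5% of introns that long.

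The share of introns with a contig was compared with that over all listed genes, and by intron length. In mouse dendrites 10 of the 63 introns of the listed subunit genes had a contig (15.9%, Wilson interval 8.86 to 26.8), and over all listed genes it was 16.6%. In somas the shares were 16.9% and 12.4%, in BAT cells 18.2% and 22.9%, and in cardiomyocytes 6.67% and 15.2%, each within the interval of the subunit genes. Of introns under 1000 nt, 0 of 24 were listed in dendrites and 2 of 25 in somas, beside 4.24% and 4.35% of all introns that short. Of the 3 introns of 100 kb or more, which belong to Grin2a and Grin2b, 0 were listed in dendrites, somas or BAT cells, beside 16.8%, 18.5% and 17.4%. From 10 kb to under 30 kb it was 2 of 4 in dendrites, 3 of 4 in somas and 1 of 4 in BAT cells, beside 38.2%, 26.9% and 41.4% of all introns of that length. From 30 kb to under 100 kb it was 2 of 9 in each of the 3 lists, beside 33.5%, 28.2% and 32.9%. Grin3a had 5 of 8 introns in each of 3 lists (62.5%, interval 30.6 to 86.3), while Grin2a and Grin2b, with more intron sequence, had 1 each in the same 3 lists and none in cardiomyocytes.

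**Figure D4:**
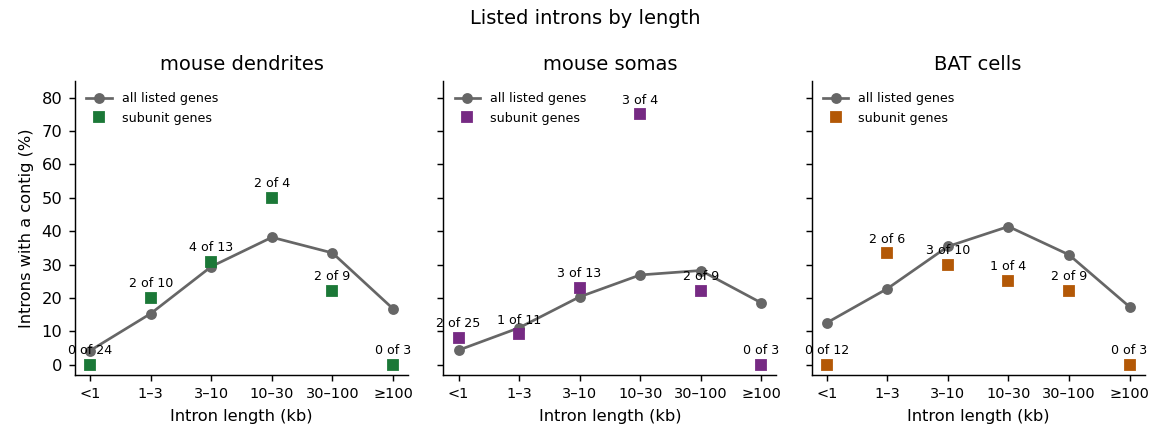
Percent of introns with a contig by intron length (kb), for all listed genes (grey line) and the subunit genes (squares, with the number listed of the number annotated), in mouse dendrites, mouse somas and BAT cells. The shares of all genes rise with length up to 10 kb in each list, and no subunit intron of 100 kb or more is listed.

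The contigs themselves were short. They ran from 59 to 1842 nt with a median of 281 nt, and the 55 mouse contigs had a median G+C content of 40.3%. All 55 lay inside the annotated intron, 15 with their midpoint in the first of 3 equal parts, 22 in the middle and 18 in the last. Read on the letters alone, 46 of them had a stop codon in all 6 frames. A run of at least 10 adenines within 300 nt downstream, where the poly(T) primer of the amplification could start, was found for 9 of the 55, and for 9.4% of all mouse contigs.

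**Figure D5:**
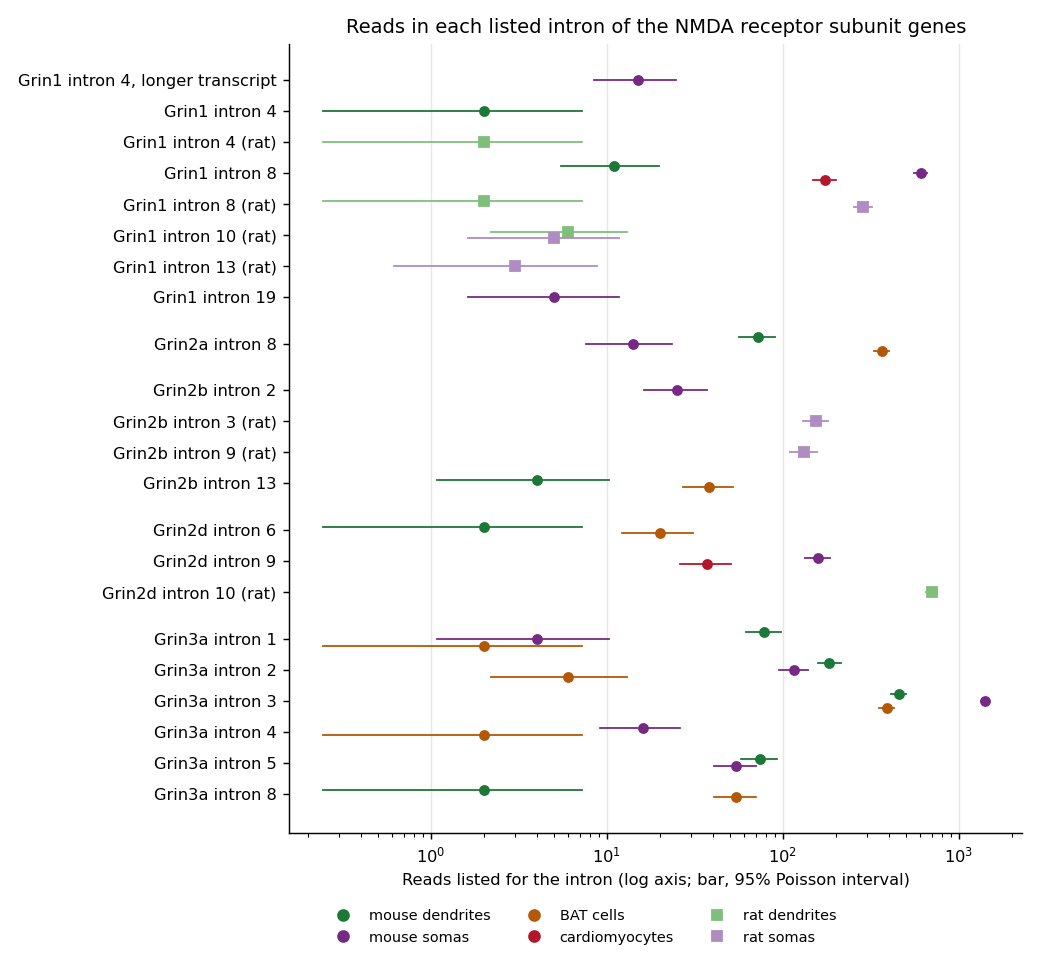
Reads listed for each intron of the 5 listed subunit genes (log axis), coloured by list, circles for mouse and squares for rat; bars are 95% Poisson intervals. Grin3a intron 3 in mouse somas is highest at 1410 reads, while introns of 2 reads have bars from 0.242 to 7.22.

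The comparison of dendrites with somas asked which intron-bearing transcripts are found away from the cell body. On the log2 scale of RPM, the median gene of both mouse lists was 0.27 higher in dendrites, and changes are best read against that. Grin1 was at 4.21 RPM in dendrites and 337 in somas, a log2 ratio of -6.32 (interval -7.24 to -5.54). Grin2d was at 0.648 and 85.2, a ratio of -7.04 that rests on 2 dendrite reads (interval -10.1 to -5.16). Grin2b was at 1.30 and 13.5, a ratio of -3.38 from 4 dendrite reads (interval -5.36 to -1.84). These 3 genes were at least 4-fold lower in dendrites, which held for 24.9% of the 4739 genes of both lists. With contigs of at most 400 nt, which leaves out the long soma contigs, Grin1 was at -1.61 and no longer 4-fold lower. Grin2a and Grin2d dropped out of the soma list. An intron that still had a contig under this limit kept all its listed reads, also those of the contigs left out. With that limit in somas only, Grin1 was at -2.42 and still 4-fold lower. Grin3a was at 257 and 862, a ratio of -1.75 (interval -1.87 to -1.62), and Grin2a at 23.3 and 7.55, a ratio of 1.63 (interval 0.79 to 2.57). Neither passed 4-fold in the full lists. Grin3a was past it at -2.38 with contigs of at most 400 nt and at -2.81 with that limit in somas only. It was also past it, at -2.01, when read against the median gene. Under the limit in both lists, intron 3 of Grin3a kept all 1410 soma reads, while intron 2 left the dendrite list with 184 reads. None of the 5 genes was at least 4-fold higher in dendrites, as 33.2% of the genes were.

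In rat, Grin1 was the only subunit gene of both lists, at 9.93 RPM in dendrites and 141 in somas, a log2 ratio of -3.83 (interval -4.90 to -2.93). The median rat gene was 0.73 higher in dendrites, and 24.6% of the 2166 genes were at least 4-fold lower and 35.7% at least 4-fold higher. Grin1 was thus lower in dendrites in both species. The sum over the subunit genes went the other way in rat, by 1.34, through the 1 contig of Grin2d, and with contigs of at most 400 nt it was -4.75 (0.032 with that limit in somas only). In the mouse the sum was at -2.19. As the lists are pools, none of these differences has a spread between libraries.

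All 5 subunit genes of mouse somas were in the dendrite list too, beside 80.4% of soma genes. BAT cells listed 4 of them, beside 86.1%, and cardiomyocytes 2, beside 62.8%. Of the 2 genes of rat somas, 1 was in rat dendrites, beside 63.8%. Intronic contigs of the receptor genes were therefore not restricted to the neuronal lists, and only their summed RPM were higher in each of the 4 neuronal lists. Of single genes, Grin1 was at 14.2 RPM in cardiomyocytes, above both dendrite lists (without mostly repeated contigs Grin1 leaves the cardiomyocyte list), Grin2a at 20.4 in BAT cells, above mouse somas, and Grin2b (2.13 in BAT cells) and Grin2d (1.12 in BAT cells and 3.03 in cardiomyocytes) above mouse dendrites. For the sum, with contigs of at most 400 nt the order did not hold for rat dendrites, at 25.6 RPM beside 57.0 in BAT cells and 45.0 in cardiomyocytes.

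The lists held markers of other cell types as well. Of 8 neuron markers, mouse somas listed 7, mouse dendrites 5, BAT cells 5 and cardiomyocytes 3, with summed levels of 35435, 2471, 1610 and 926 RPM. Snap25 and Syt1, which serve transmitter release, were listed in BAT cells. Of 5 astrocyte markers, Gfap, Aqp4, Slc1a3 and Aldh1l1 were listed in mouse dendrites, at 966 RPM in sum, beside 5.39 in somas, where Gfap and Aqp4 were not listed. Of 7 brown fat markers, BAT cells listed 6 (3542 RPM), mouse dendrites 4 (322 RPM), cardiomyocytes 3 (287 RPM), mouse somas 2 (2.16 RPM), rat somas 2 (15.8 RPM) and rat dendrites 1 (94.3 RPM). Ucp1, the defining one, was in the lists of BAT cells, cardiomyocytes and both kinds of dendrites, and in neither soma list. Of 8 cardiomyocyte markers, cardiomyocytes listed 6 (23736 RPM), BAT cells 5 (2081 RPM), mouse dendrites 4 (380 RPM), mouse somas 2 (10.2 RPM), and rat dendrites and somas 1 each (77.4 and 59.7 RPM). In rat dendrites, where Grin2d was highest, 2 of 4 fibroblast markers (317 RPM), 1 of 3 oligodendrocyte markers (Mog, 138 RPM) and 1 of 5 astrocyte markers (Slc1a3, 68.5 RPM) were listed, and none of the 3 microglia markers. The part of other cells in the counts of the subunit genes was not tested.

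Grin3b and Grina also carry the family name. Grin3b, the other GluN3 gene, was listed by intron 1 in mouse dendrites with 322 reads, in cardiomyocytes with 141, in BAT cells with 6 and in rat dendrites with 4, and in no soma list. Grina, which is named after the receptor but encodes no channel subunit, had 3 reads in BAT cells only. In the mouse, both GluN3 genes were thus listed in dendrites, and of the pair Grin3a alone in somas.

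The other ionotropic glutamate receptors are given for scale. The 4 AMPA receptor genes, which carry the fast synaptic current, had 14 listed introns and 908 RPM in mouse dendrites and 22 introns and 18742 RPM in mouse somas. The 5 kainate receptor genes had 4 genes and 397 RPM in dendrites and 3 genes and 2851 RPM in somas. The NMDA receptor genes thus had the lowest sum of the 3 families in both mouse neuron lists. In rat dendrites the AMPA genes had 1422 and the kainate genes 37.7 RPM, and in rat somas 2164 and 2091.

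A list of 36 genes of scaffolds, kinases and transporters around the receptor was read beside them. It had 25 genes in mouse dendrites and 25 in mouse somas, with 4569 and 9348 RPM, 28 in BAT cells and 17 in cardiomyocytes, with 7452 and 9104 RPM, and 17 in rat dendrites and 16 in rat somas, with 6828 and 15543 RPM. The gene with the most reads was Dlg2, which encodes the scaffold PSD-93, in mouse dendrites (3685 reads) and somas (5152). It was Dlg1, the scaffold SAP97, in BAT cells (56868) and Camk2d, a calmodulin-dependent kinase of heart and other tissues, in cardiomyocytes (52166). In rat dendrites it was Srr (3090), which makes D-serine, a ligand of the glycine site, and in rat somas Fyn (19260), a kinase that phosphorylates GluN2 subunits.

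For the members in at least 3 lists, the genes with the most similar levels were found by the distance of log2(RPM + 1) over the 6 lists. Nearest to Grin1 were Tmem214 (distance 3.10), Ptprs (3.45) and Ubac1 (3.56), which like it were high in both soma lists. Nearest to Grin2a were A530032D15Rik (0.31), Caml (0.32) and Spatc1 (0.66), and to Grin2b Arl2bp (1.81), Egfr (1.93) and Slc38a7 (2.00). Nearest to Grin2d were Dedd (1.81), Btbd10 (2.06) and Sec61g (2.44), and to Grin3a Eml6 (0.46), Csrnp3 (1.15) and Zfat (1.18). The distances rest on 6 pooled values, and for Grin2a and Grin3a on 3 values above 0.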

How the data were processed

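Intronic contigs were taken from 6 lists, 1 for each condition, into which the authors pooled their libraries (26 by the labels). Per the labels and methods, paired reads of 50 nt were aligned to mm9 or rn4 (RUM 2.0.3), uniquely mapped intronic reads were kept, introns holding a predicted gene or a poly(A) site were dropped, and reads within a set distance were joined. The deposited counts are the authors' raw read numbers of whole introns, with no normalization, repeated on each contig and taken once. Depth is the sum of listed reads, between 1007530 and 17858440 per list. The lists were read with Python 3.11.15 and pandas 2.3.3, and starts were shifted by 1. Mouse RefSeq transcripts were matched to GENCODE on NCBIM37 (12851 of 13156). Intervals are 95% exact Poisson, exact binomial (ratios) and Wilson. Functions for the reads of an intron, for RPM and for contig overlaps were tested on simulated data.

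The members, gene lists and named genes (members with all introns, Grin3b, Grina, the top pathway gene of each list, nearest genes) were chosen with earlier results of these data known. The 24-mer count was added after the contigs were seen. Alternatives were contigs of at most 400 nt, introns with at least 32 reads, single transcripts, reads summed over contigs, library totals, gene percentiles and introns of at least 1000 nt. The 400 nt limit was applied to dendrites as well as whole cells, and to whole cells only in an alternative added after seeing the data. Since reads are listed for whole introns, an intron with a contig left kept all its reads, also those of longer contigs. With 1 pooled list per condition, no test was made. The labels name more BAT and cardiomyocyte libraries than the methods count, and the sources used here do not name the ones behind the lists.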

Additional observations from a re-analysis of the deposited data

Results flagged for a closer look

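Grin2d was picked out because its dendrite and soma values went opposite ways in the 2 species. In mouse the log2 ratio of dendrites to somas was -7.04, from 2 dendrite reads against 158 soma reads, while in rat 699 reads were listed in dendrites and the gene was not listed in somas. With contigs of at most 400 nt, neither the mouse soma nor the rat dendrite contig remains. With that limit in whole cells only, the rat dendrite contig remains and the mouse soma contig does not. Either way the opposition is gone. The difference between the species was not tested, since each value is 1 pooled list, and the contigs lie in introns numbered 6 and 9 in mouse and 10 in rat.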

How the results depend on the processing

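No paired analysis was possible because each condition is 1 pooled list with no replicate number, and for the same reason no library could be left out. Of 86 values under other settings, 52 kept their direction and stayed within the counting interval or, for counts, within 1.5 times (gene percentiles, which have another unit, were held to direction only), 33 moved and 1 reversed. With contigs of at most 400 nt, the subunit genes had 399 RPM in mouse dendrites, 1852 in mouse somas, 57.0 in BAT cells, 45.0 in cardiomyocytes, 25.6 in rat dendrites and 688 in rat somas. BAT cells then listed 5 introns, BAT cells shared 2 genes with mouse somas, and cardiomyocytes 1. The rat log2 ratio of all members reversed to -4.75, because the contig of Grin2d is longer than the limit, and in mouse Grin1 moved to -1.61 and Grin3a to -2.38. With the limit in somas only, as the study set it (chosen after seeing the data), the sum moved to -2.69 in mouse and 0.032 in rat, Grin1 to -2.42 in mouse and -5.58 in rat, and Grin3a to -2.81. With at least 32 reads per intron, 5 introns remained in mouse dendrites, 5 in mouse somas, 4 in BAT cells, 1 in rat dendrites and 3 in rat somas. Reads summed over contigs count the reads of an intron again for each of its contigs. That sum gave 2867 RPM in mouse somas, 83.6 in BAT cells, 10.6 in cardiomyocytes and 507 in rat dendrites. Against library totals, which put all reads in the denominator, the values were 14.7 RPM in mouse dendrites, 48.1 in mouse somas, 13.2 in rat dendrites and 7.08 in rat somas, with log2 ratios of -1.71 in mouse and 0.90 in rat, and -1.27 for Grin3a. Without contigs of mostly repeated 24-mers, a setting chosen after seeing the data, cardiomyocytes kept 1 intron, in Grin2d, and lost Grin1. Mouse somas went from 11 introns to 9, losing Grin2a and intron 5 of Grin3a. Mouse dendrites went from 10 to 9, losing intron 8 of Grin1, which held 11 of the 13 reads of that gene. BAT cells went from 8 to 7, losing intron 4 of Grin3a. The gene percentiles turned no direction, and the count by transcript moved no value past these limits. The share of introns with a contig stayed in its interval but rose to 25.6% in mouse dendrites and 18.2% in cardiomyocytes over introns of at least 1000 nt, and fell to 11.4% in BAT cells with contigs of at most 400 nt. Introns of 2 reads are near the lowest counts that the lists hold.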
